A study of Saccharomyces cerevisiae with 18 samples.

Results

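CUT_GIM transcripts are 1315 short features of a second annotation of cryptic unstable transcripts (CUTs) in budding yeast, among 12289 features whose RNA reads were counted in 18 libraries. They were taken by the start of their identifier, and were split by whether they shared at least 1 base on the same strand with an open reading frame (ORF) feature or a structural RNA. By that rule 863 (65.6%) were free of a same-strand gene, here called gene-free, and 452 (34.4%) overlapped one. The upf1 series compared a upf1 deletion (upf1Δ) with its wild type. The second series compared an nmd4 deletion (nmd4Δ), an ebs1 deletion (ebs1Δ) and a strain labelled as an nmd4 ebs1 double deletion with a wild type of their own, with 3 libraries in each of the 6 groups. All strains derive from S288C and were BY4741, mating type a, except the labelled double deletion, which was BY4742, mating type alpha, so that genotype and parent strain cannot be told apart there. Cells were collected in exponential growth at an optical density of 0.6 in rich medium (YPD) at 30 °C. The labels give no clone numbers, and do not say whether the libraries of a group came from separate cultures, so p-values measure the spread between these libraries.

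CUTs are RNA polymerase II transcripts that often start at the nucleosome-free regions of gene promoters, on the strand opposite to the gene. Their transcription is ended by the Nrd1-Nab3-Sen1 complex, whose RNA-binding subunits prefer short motifs, and the nuclear exosome with its TRAMP cofactor degrades them soon afterwards. Stable unannotated transcripts (SUTs) and Xrn1-sensitive unstable transcripts (XUTs) are related classes, and XUTs are degraded in the cytoplasm by the exonuclease Xrn1. Upf1 is the helicase at the core of nonsense-mediated mRNA decay (NMD), a cytoplasmic pathway that acts on RNAs in the course of translation, and Nmd4 and Ebs1 are proteins found with it.

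The first 200 bases of 5 gene-free transcripts on which the results turn are shown 5′ to 3′ along the transcribed strand, from the RefSeq genome of build R64. GTAA and GTAG, bound by Nrd1, and TCTT, bound by Nab3, are in capitals, and overlapping matches were counted separately. CUT_GIM_0073 (minus strand, chrV:187264-187463) and CUT_GIM_0934 (minus strand, chrXIII:731922-732121) are shown because both combined a high level with a large rise in upf1Δ. CUT_GIM_0467 (plus strand, chrVII:875355-875554) and CUT_GIM_1170 (minus strand, chrIV:806014-806213) had the largest rise and the largest fall named among transcripts that lay on no other annotated feature. CUT_GIM_0109 (plus strand, chrII:326329-326528) had the highest level per length of the 5.
CUT_GIM_0073: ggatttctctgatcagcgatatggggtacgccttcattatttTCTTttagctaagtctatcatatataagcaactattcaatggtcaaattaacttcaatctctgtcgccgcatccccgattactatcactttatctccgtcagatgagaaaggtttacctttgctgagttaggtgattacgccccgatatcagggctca
CUT_GIM_0934: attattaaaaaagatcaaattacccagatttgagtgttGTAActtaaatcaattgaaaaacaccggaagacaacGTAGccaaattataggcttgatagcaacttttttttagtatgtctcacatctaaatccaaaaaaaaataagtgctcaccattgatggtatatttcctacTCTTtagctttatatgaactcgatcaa
CUT_GIM_0467: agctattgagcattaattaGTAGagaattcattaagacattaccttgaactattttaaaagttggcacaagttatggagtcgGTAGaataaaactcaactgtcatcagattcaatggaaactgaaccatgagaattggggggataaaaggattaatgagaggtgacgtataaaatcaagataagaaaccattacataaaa
CUT_GIM_1170: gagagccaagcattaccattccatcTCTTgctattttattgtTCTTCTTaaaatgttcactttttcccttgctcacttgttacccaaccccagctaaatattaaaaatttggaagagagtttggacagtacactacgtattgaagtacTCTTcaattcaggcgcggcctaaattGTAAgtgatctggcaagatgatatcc
CUT_GIM_0109: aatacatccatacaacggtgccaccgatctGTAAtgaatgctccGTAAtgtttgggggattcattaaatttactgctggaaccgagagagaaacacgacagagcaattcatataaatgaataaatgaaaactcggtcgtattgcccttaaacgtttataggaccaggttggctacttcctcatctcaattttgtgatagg
These stretches held 1, 3, 2, 5 and 2 sense-strand matches in the order printed, and 3, 4, 5, 5 and 2 matches on the opposite strand. Counts from 5 chosen stretches cannot show whether the motifs mark single transcripts.

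Over whole transcripts the motifs were denser on the sense strand of the gene-free set. TCTT stood at 12.6 matches per kb on the sense strand and 6.06 per kb on the opposite strand, GTAG at 4.77 and 2.09 per kb, and GTAA at 6.22 and 3.95 per kb. The 452 transcripts that overlapped a gene had smaller differences, with TCTT at 10.5 per kb on the sense and 7.98 per kb on the opposite strand. Gene-free CUTs of the first annotation had a similar bias, with TCTT at 12.5 per kb sense and 5.02 per kb antisense. Their GTAG stood at 3.91 per kb sense and 2.2 per kb antisense, so the bias was not particular to CUT_GIM transcripts. Gene-free SUTs had TCTT at 7.4 and 6.8 per kb and gene-free XUTs at 7.98 and 6.49 per kb, sense and antisense. ORF features ran the other way, with TCTT at 5.36 per kb sense and 11.1 per kb antisense. Most gene-free transcripts lay opposite an ORF feature (625, or 72.4%), so their sequence includes antisense ORF sequence. The 238 with no ORF opposite still had 10.5 TCTT matches per kb sense and 6.90 per kb antisense, and 4.31 GTAG matches per kb sense and 2.54 per kb antisense. Among 628 gene-free transcripts long enough for a 200-base window, the first window held GTAA in 72.0%, GTAG in 59.7% and TCTT in 86.6%, against 57.4%, 40.3% and 73.1% of 120698 windows tiled over both strands of the genome. A match is a description of the sequence and not a binding site.

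Most gene-free transcripts lay near the start of an ORF. That start, on the opposite strand, lay within 500 bases upstream, in a divergent arrangement, for 567 of the 863 (65.7%). For 105 of the 863 (12.2%) a same-strand ORF ended within 500 bases upstream, and the part of reads from such an mRNA was not tested. The 863 ranged in length from 1 to 1042 bases with a median of 284 bases, and 28 were shorter than 50 bases. On the same strand, 295 lay on a SUT or XUT, 266 lay on a CUT of the first annotation only, and 302 lay on no other annotated feature. Of the 452 that overlapped a gene, 269 covered the start of the gene feature, 94 lay inside it, 66 covered its end and 23 spanned it. In 12 of these the gene was a structural RNA. The second annotation was not a copy of the first, because 401 of 925 first-annotation CUTs shared a base with it.

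Library totals were 14243384 to 31452109 counts, and reads were counted for every feature they overlapped. A gene-free transcript on a SUT or XUT therefore shares its reads with that feature, and an overlapping one shares reads with its gene. In the upf1 series NAM7, the gene of Upf1, averaged 8.78 CPM (reads relative to the scaled total of the library) in upf1Δ and 251 CPM in wild type. EBS1 averaged 3.67 CPM in ebs1Δ, 4.83 CPM in the labelled double deletion and 142 CPM in wild type, and NMD4 averaged 2.87 CPM in nmd4Δ and 27.2 CPM in wild type. NMD4 was not lost in the libraries labelled as the double deletion, where it averaged 73.6 CPM, so that every value from that group belongs to a label that NMD4 goes against. LYS2, deleted in BY4742, averaged 0.072 CPM there and 343 CPM in wild type.

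Gene-free transcripts were rare. In the upf1 series they took 0.0853% of counts in upf1Δ, against 0.0625% in wild type, and the overlapping set took 2.64% in upf1Δ, against 2.78% in wild type. After scaling, the gene-free set summed to 776 ± 54.5 CPM in upf1Δ and 688 ± 76.8 CPM in wild type (SD, n = 3 each), with libraries that overlapped. The overlapping set summed to 23988 ± 1190 CPM in upf1Δ and 30608 ± 1478 CPM in wild type, with separate libraries. CUT_GIM_0748, described below, put 1931 CPM into replicate 1 of upf1Δ, which the 2.64% also includes. Without it the overlapping set summed to 23404, 23548 and 23076 CPM in upf1Δ, against 32305, 29898 and 29616 CPM in wild type. The median gene-free transcript had 1.15 CPM per kb over the 18 libraries and the median overlapping one had 9.84 CPM per kb. The gene-free median was 2.44 CPM per kb on a SUT or XUT, 1.01 CPM per kb on a first-annotation CUT only, and 0.539 CPM per kb on no other feature. Of the 863, 163 reached a mean of 1 CPM and 5 reached 10 CPM. In single libraries 107 to 126 gene-free transcripts had no count in upf1Δ, against 89 to 126 in wild type, and 5 had no count in any of the 18 libraries. Enough counts for a test in the upf1 series were found for 327 gene-free transcripts (37.9%) and 363 overlapping ones (80.3%), and in the second series for 426 and 391.

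The upf1 comparison asked which transcripts change without the core NMD factor. Among the 327 gene-free transcripts tested, 92 rose and 59 fell (adjusted p under 0.05, edgeR's quasi-likelihood test with Benjamini-Hochberg adjustment over all features), which is 28.1% and 18.0%. Over all 9700 features tested, 37% were higher and 31.8% lower, so neither share of the gene-free set exceeded that of all features at this threshold. Their median log2 fold was 0.12, against 0.02 over all features, and it turned to -0.16 with no filter on low counts and -0.20 with DESeq2, and was 0.00495 without replicate 3 of upf1Δ. The overlapping set leaned down, with 63 higher (17.4%) and 149 lower (41.0%) of 363 and a median of -0.27. ORF features, most of which are mRNAs, had 1540 higher and 2610 lower of 5915 and a median of -0.13. Scaling on coding features alone shifted the median of all features to 0.15. It gave 107 higher (32.7%) and 40 lower (12.2%) gene-free transcripts and 78 higher (21.5%) and 112 lower (30.9%) overlapping ones, against 42.5% higher and 21.4% lower of all features. At a minimum fold of 1.5, 50 gene-free transcripts rose (15.3%) and 16 fell (4.89%), against 21.8% and 1.78% of all features, so that the share of falls exceeded that of all features. These are levels per library of total RNA, in which fewer cells with a transcript and less of it per cell cannot be told apart.

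Of the 213 tested gene-free transcripts on a SUT or XUT, 81 rose (38%) and 29 fell (13.6%), with a median log2 fold of 0.34 (95, or 44.6%, and 17, or 7.98%, with scaling on coding features). Their share of rises was near the 37% of all features, and their share of falls was below the 31.8%. The 74 on a first-annotation CUT only had 4 higher and 20 lower and a median of -0.35, and the 40 on no other feature had 7 higher and 10 lower and a median of -0.21. Together these 114 had 9.65% higher and 26.3% lower. For comparison, gene-free SUTs had 467 higher and 27 lower of 644 with a median of 1.07, gene-free XUTs 1017 and 36 of 1394 with a median of 1.08, and gene-free CUTs of the first annotation 107 and 54 of 358 with a median of 0.06. The differences between these subsets were not tested.

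**Figure D1:**
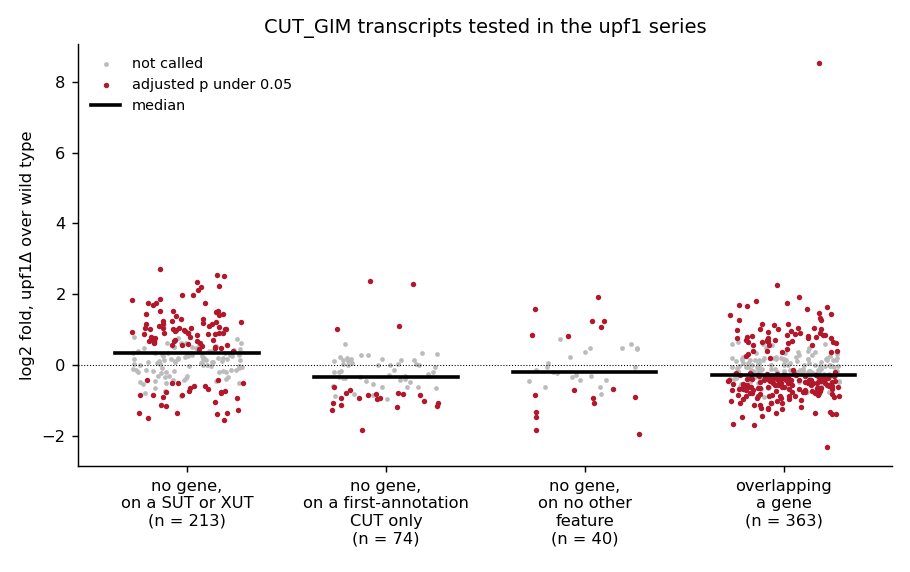
Log2 fold change, upf1Δ over wild type, of each tested CUT_GIM transcript in 4 subsets, with transcripts at an adjusted p under 0.05 in red, the others in grey and the median as a black line. The median was 0.34 on a SUT or XUT and -0.35, -0.21 and -0.27 in the other subsets, and the single point near the top of the overlapping set is CUT_GIM_0748, whose counts came from 1 library.

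The summed level showed the same division. The 295 gene-free transcripts on a SUT or XUT summed to 559 ± 28.1 CPM in upf1Δ and 372 ± 25 CPM in wild type (SD, n = 3 each). The 266 on a first-annotation CUT only summed to 150 ± 21.7 CPM in upf1Δ and 241 ± 44.1 CPM in wild type. The pair CUT_GIM_0103 and CUT_GIM_0109, which share most of their reads, made up much of the second sum. Without the pair the sums were 77.5, 69.0 and 78.1 CPM in upf1Δ, against 103, 87.8 and 99.0 CPM in wild type, and the groups still did not overlap. The 302 on no other feature summed to 66.3 ± 5.06 CPM in upf1Δ and 74.3 ± 9.45 CPM in wild type, a difference within the spread of the libraries. In the second series the sums on a SUT or XUT were 413 ± 12.8 CPM in nmd4Δ, 427 ± 13.8 CPM in ebs1Δ, 451 ± 18.9 CPM in the labelled double deletion and 384 ± 34.7 CPM in wild type. The library values of nmd4Δ and ebs1Δ overlapped those of wild type, and those of the labelled double deletion did not. Between same-numbered libraries, the sum was higher in all 3 pairs in ebs1Δ (425, 415 and 442 CPM in ebs1Δ, against 353, 377 and 422 CPM in wild type) and in 2 of 3 pairs in nmd4Δ (400, 426 and 414 CPM in nmd4Δ).

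**Figure D2:**
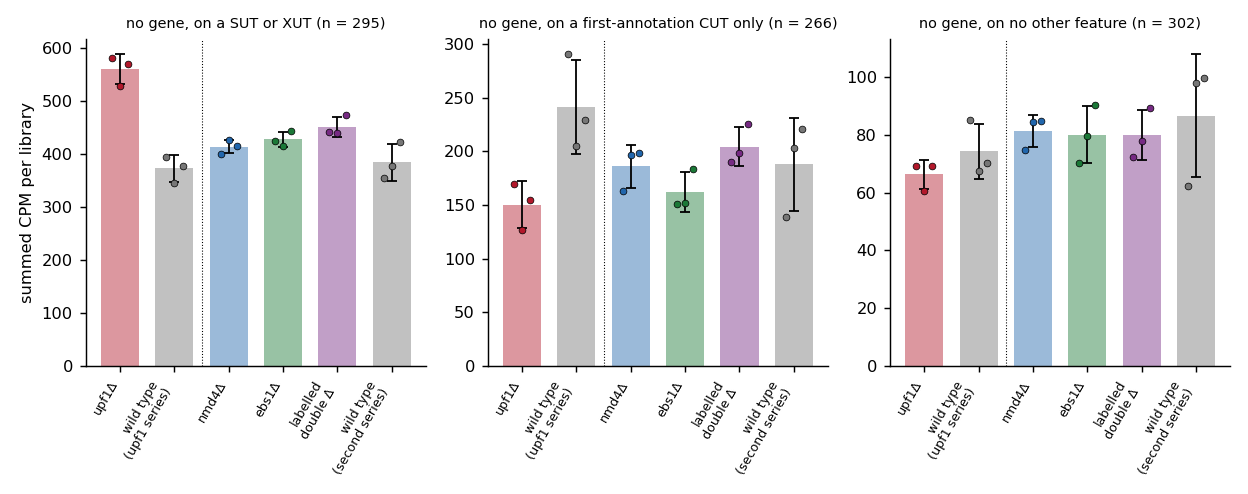
Summed CPM per library of gene-free CUT_GIM transcripts in 3 subsets and 6 groups, with bars for the mean, lines for the SD and points for the 3 libraries. In upf1Δ the sum was 559 CPM on a SUT or XUT, against 372 CPM in wild type, and 150 CPM on a first-annotation CUT only, against 241 CPM in wild type.

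Properties that had no part in the choice of transcripts are given by call as a description. Those that rose had a median length of 455 bases, those that fell 351 bases, those tested and not called 390.5 bases and those not tested 237 bases. An ORF lay opposite 53 of the 92 that rose (57.6%), 43 of the 59 that fell (72.9%), 115 of the 176 not called (65.3%) and 414 of the 536 not tested (77.2%). TCTT stood at 9.15 matches per kb in those that rose, 12.5 per kb in those that fell, 11.4 per kb in those not called and 14.4 per kb in those not tested. GTAA stood at 6.14, 6.53, 5.89 and 6.36 per kb in the same order. Length and level set which transcripts could be tested, and their part in these differences was not tested.

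The gene-free transcript with the smallest p was CUT_GIM_0073, a 585-base transcript on SUT509 and XUT_5R-93. It starts 771 bases from BIM1, which encodes a microtubule plus-end protein, and its end runs opposite FAA2, a fatty acyl-CoA synthetase gene. It had 35.2, 32.9 and 35.1 CPM in upf1Δ, against 6.90, 6.83 and 6.63 CPM in wild type. The groups were far apart and each was tight, and the log2 fold was 2.34 ± 0.08 SE (adjusted p = 1.05e-09, edgeR). BIM1 itself was not called (adjusted p = 0.99, edgeR), while FAA2 rose by a log2 fold of 1.38. CUT_GIM_0934, on SUT737 and XUT_13R-330 and divergent from the ribosomal protein gene RPS10B at 249 bases, had 14.7, 14.4 and 14.2 CPM in upf1Δ, against 2.11, 3.07 and 2.39 CPM in wild type. Its log2 fold was 2.53 ± 0.13 SE (adjusted p = 2.56e-08, edgeR), and RPS10B fell by 0.58 on the log2 scale.

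The other large rises were of transcripts at a few CPM. CUT_GIM_0732, on XUT_9R-175 and 791 bases from the start of DAL81, an activator gene of nitrogen use, had 2.87, 3.01 and 4.01 CPM in upf1Δ, against 0.661, 0.301 and 0.504 CPM in wild type (log2 2.71 ± 0.26 SE, adjusted p = 4.33e-06, edgeR), the largest fold among the gene-free transcripts past 1 CPM. CUT_GIM_0122, opposite the vacuolar permease gene VBA2, had 1.81, 1.65 and 2.50 CPM in upf1Δ, against 0.289, 0.352 and 0.378 CPM in wild type (log2 2.53 ± 0.28 SE). VBA2 on the other strand also rose, by a log2 fold of 1.56. CUT_GIM_0699, opposite RGS2, a regulator gene of glucose signalling, had 6.16, 5.40 and 5.44 CPM in upf1Δ, against 1.24, 0.955 and 1.47 CPM in wild type (log2 2.19 ± 0.17 SE), and RGS2 fell by 0.63 on the log2 scale. CUT_GIM_1200, opposite the glucose sensor gene RGT2, had 3.88, 3.29 and 3.77 CPM in upf1Δ, against 0.909, 0.854 and 1.01 CPM in wild type (log2 1.97 ± 0.17 SE), and RGT2 had a log2 fold of -0.04 that was not called. Transcript and opposite gene thus moved together at VBA2 and FAA2, apart at RGS2, and singly at RGT2.

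CUT_GIM_0801 lies opposite NFG1 and is divergent, at 213 bases, from AFB1, which encodes a protein secreted by alpha cells that acts on a-factor. It had 6.49, 6.83 and 6.35 CPM in upf1Δ, against 1.90, 0.854 and 1.72 CPM in wild type (log2 2.11 ± 0.20 SE, adjusted p = 4.63e-06, edgeR), and AFB1 was not called (log2 -0.09). CUT_GIM_0787, divergent from the exocyst gene SEC10 at 108 bases, had 3.67, 2.52 and 1.98 CPM in upf1Δ, against 0.661, 0.201 and 0.797 CPM in wild type (log2 2.24 ± 0.36 SE). CUT_GIM_0031, opposite HMF1, had 2.11, 1.72 and 2.54 CPM in upf1Δ, against 0.537, 0.452 and 0.588 CPM in wild type (log2 1.99 ± 0.24 SE). All 3 lay on a SUT or XUT. CUT_GIM_0467 did not: it lay on no other feature, 193 bases from the start of the spindle checkpoint kinase gene BUB1. It had 4.09, 3.82 and 5.12 CPM in upf1Δ, against 1.24, 1.11 and 1.09 CPM in wild type (log2 1.91 ± 0.18 SE, adjusted p = 3.79e-06, edgeR), and BUB1 fell by 0.32 on the log2 scale.

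CUT_GIM_1170, 346 bases from the small heat-shock protein gene HSP42, had 0.464, 0.280 and 0.238 CPM in upf1Δ, against 1.53, 0.854 and 1.34 CPM in wild type (log2 -1.94 ± 0.33 SE, adjusted p = 0.000342, edgeR). CUT_GIM_0112, opposite the exocyst gene EXO84, had 0.380, 0.420 and 0.675 CPM in upf1Δ, against 1.45, 1.51 and 1.13 CPM in wild type (log2 -1.46 ± 0.27 SE). CUT_GIM_0025, opposite the iron permease gene FTR1, had 0.464, 0.245 and 0.476 CPM in upf1Δ, against 1.24, 0.904 and 1.13 CPM in wild type (log2 -1.49 ± 0.30 SE). FTR1 fell too, by 0.68 on the log2 scale. CUT_GIM_0569 and CUT_GIM_0528 start at the same base, 843 bases from the start of RIM8, a gene of pH signalling, and share reads, and had log2 folds of -1.55 ± 0.33 and -1.35 ± 0.28 SE. CUT_GIM_0346, 45 bases long, had 2.45, 2.63 and 2.34 CPM in upf1Δ, against 7.60, 6.13 and 5.04 CPM in wild type (log2 -1.34 ± 0.17 SE, adjusted p = 3.63e-05, edgeR). It starts 74 bases past the end of ASR1 on the same strand, and whether its reads belong to that mRNA was not tested.

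**Figure D3:**
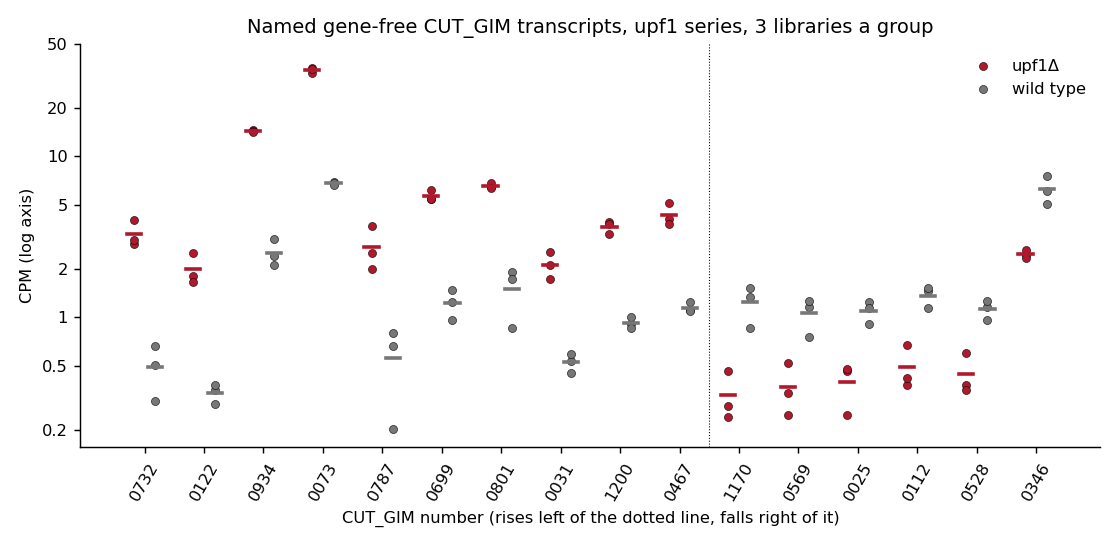
CPM on a log axis of the 10 gene-free CUT_GIM transcripts with the largest rises and the 6 with the largest falls in the upf1 series, with upf1Δ in red left of wild type in grey, 3 libraries a group and a bar for the mean. No groups overlap, which the choice of these transcripts required, and CUT_GIM_0073 at 35.2, 32.9 and 35.1 CPM in upf1Δ is the most abundant.

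For several named transcripts the wild type of the second series was not at the level of the first. CPM were scaled within each series, and experimenters differed between series, so levels across them are only set side by side. CUT_GIM_1170 had 0.0561, 0 and 0.0382 CPM and CUT_GIM_0112 had 0.225, 0 and 0.0764 CPM in the wild type of the second series, below their upf1Δ values. CUT_GIM_0346 had 1.46, 2.76 and 2.67 CPM there, next to its upf1Δ values. The wild type of the upf1 series was the high group for these 3 falls. The same held for CUT_GIM_0569 and CUT_GIM_0528, which share reads. They averaged 0.403 and 0.531 CPM in the second wild type, 0.366 and 0.442 CPM in upf1Δ, and 1.06 and 1.12 CPM in the first wild type. CUT_GIM_0025 averaged 0.824 CPM in the second wild type, between its 0.395 CPM in upf1Δ and 1.09 CPM in the first. Rises differed between the wild types too. CUT_GIM_0122 averaged 0.915 CPM in the second wild type and 0.340 CPM in the first, CUT_GIM_0934 averaged 4.54 CPM in the second and 2.52 CPM in the first, and CUT_GIM_1200 averaged 1.77 CPM in the second and 0.923 CPM in the first. CUT_GIM_0073 was close, at 5.50 CPM in the second wild type and 6.79 CPM in the first.

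The most abundant gene-free transcripts per library were CUT_GIM_0103 and CUT_GIM_0109. They start at the same base on the CUT of the first annotation named CUT015, 180 bases from TCM62, which encodes a mitochondrial chaperone, and nearly all their reads are shared. CUT_GIM_0109 had 46.2, 29.0 and 38.0 CPM in upf1Δ, against 93.7, 58.3 and 64.8 CPM in wild type (log2 -0.95 ± 0.18 SE, adjusted p = 0.000767, edgeR). Its level per length was 123 CPM per kb in upf1Δ and 235 CPM per kb in wild type. In the second series it had 22.1, 27.2 and 31.9 CPM in nmd4Δ, 20.2, 24.9 and 30.7 CPM in ebs1Δ, 17.8, 21.2 and 28.9 CPM in the labelled double deletion, and 16.3, 45.8 and 32.9 CPM in wild type, whose libraries spanned the mutants' values. CUT_GIM_0609, on SUT388, had 15.1, 13.6 and 15.2 CPM in upf1Δ, against 14.4, 14.6 and 16.3 CPM in wild type (log2 -0.05, adjusted p = 0.67, edgeR), and its groups overlapped. It ends 27 bases before GDS1 on the same strand. CUT_GIM_0005, on SUT091 and partly opposite the ribosomal protein gene RPL34A, had 7.55, 8.90 and 7.54 CPM in upf1Δ, against 5.78, 5.18 and 5.54 CPM in wild type (log2 0.54 ± 0.12 SE, adjusted p = 0.0017, edgeR).

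Transcripts that overlapped a gene share reads with it, so agreement is partly built in, and most that were called moved with the gene. CUT_GIM_0023, at the start of VTC1, a gene of vacuolar polyphosphate synthesis, had 44.7, 50.2 and 42.6 CPM in upf1Δ, against 132, 116 and 132 CPM in wild type (log2 -1.47 ± 0.07 SE, adjusted p = 2e-08, edgeR). VTC1 fell by 1.5 on the log2 scale. CUT_GIM_1027, inside the meiotic kinase gene IME2, had 6.37, 5.89 and 6.27 CPM in upf1Δ, against 1.57, 2.36 and 1.38 CPM in wild type (log2 1.82 ± 0.18 SE), and IME2 rose by a log2 fold of 2.18. CUT_GIM_0275, at the start of CIP1, had 0.422, 0.456 and 0.556 CPM in upf1Δ, against 2.31, 1.36 and 0.965 CPM in wild type (log2 -1.69 ± 0.35 SE), and CIP1 fell by 0.83 on the log2 scale. Both CUT_GIM_0300 in the elongation factor gene CAM1 (log2 -1.43 ± 0.28 SE, with CAM1 at -0.29) and CUT_GIM_1225 in the ribosomal protein gene RPL41A (log2 -1.38 ± 0.34 SE, with RPL41A at -0.14, not called) were short, at 51 and 15 bases.

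Other overlapping transcripts rose where the gene did not. CUT_GIM_0675, inside SIL1, which encodes an exchange factor of an endoplasmic reticulum chaperone, had 1.14, 1.09 and 1.03 CPM in upf1Δ, against 0.207, 0.251 and 0.210 CPM in wild type (log2 2.27 ± 0.28 SE, adjusted p = 3.29e-05, edgeR), while SIL1 had a log2 fold of -0.07. CUT_GIM_0260, inside the lysine synthesis gene LYS9, had 2.19, 2.52 and 2.82 CPM in upf1Δ, against 0.991, 0.402 and 0.546 CPM in wild type (log2 1.92 ± 0.27 SE), while LYS9 had -0.06. CUT_GIM_0622, at the start of the actin assembly gene LAS17, had 4.43, 2.56 and 3.37 CPM in upf1Δ, against 1.20, 1.00 and 0.839 CPM in wild type (log2 1.75 ± 0.24 SE), while LAS17 had -0.05. None of the 3 genes was called.

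The value of 1 overlapping transcript was set by a single library, and it was singled out after its values were seen. CUT_GIM_0748 (minus strand, chromosome IX, 258298 to 258709) overlaps the start of the mitochondrial maintenance gene MMF1 by 53 bases. It had 45797 counts in replicate 1 of upf1Δ and 56 and 59 counts in the other upf1Δ libraries, against 41, 40 and 37 counts in wild type. MMF1 had 584, 553 and 563 CPM in upf1Δ, against 819, 784 and 776 CPM in wild type, with no peak in that library. The log2 fold of CUT_GIM_0748 was 8.53 ± 2.33 SE (adjusted p = 0.00711, edgeR), and without that library it was 0.30 (adjusted p = 0.238, edgeR). No other CUT_GIM transcript with at least 50 counts in a library stood 5 times above all other libraries. The cause was not tested.

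Over pairs of a transcript and the feature it shares reads with, log2 folds in upf1Δ were compared as a description, since the points share reads. For 351 overlapping transcripts and their gene Pearson's r was 0.51 and Spearman's rho 0.69, and r was 0.66 without CUT_GIM_0748. Of 60 that rose the gene rose in 41 and fell in 2, and of 146 that fell the gene fell in 118 and rose in 4. For 212 gene-free transcripts and their SUT or XUT r was 0.88. The SUT or XUT had the larger median, 0.53 against 0.34 for the CUT_GIM transcripts, and the CUT_GIM transcript had the lower fold in 137 of the 212 pairs. Overlapping transcripts likewise had a lower fold than their gene in 226 of the 351 pairs, with medians of -0.27 and -0.16. Of 81 that rose, the SUT or XUT rose in 75. With the ORF on the opposite strand, which shares no reads, r was -0.05 over 206 pairs. Of 53 transcripts that rose, the opposite ORF rose in 14 and fell in 15, and of 42 that fell it fell in 12 and rose in 17. Over all 206 pairs the opposite ORF rose in 66 and fell in 72. Divergent ORFs fell more often than they rose whether the transcript rose (10 higher and 25 lower of 55), fell (6 and 20 of 37) or is taken from all tested (31 and 113 of 208). ORF features as a whole leaned the same way, with 26% higher and 44.1% lower.

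**Figure D4:**
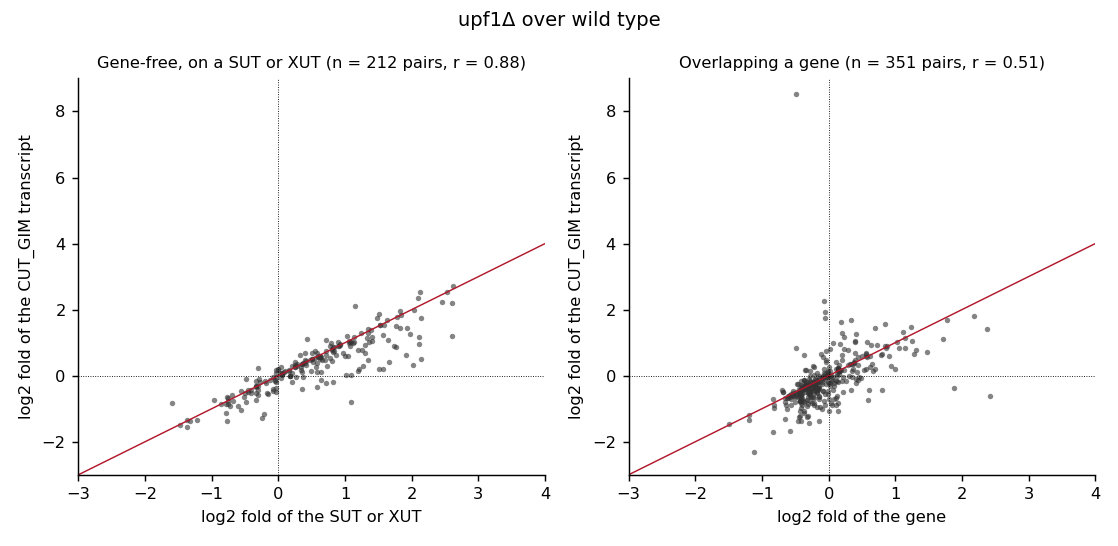
Log2 fold change, upf1Δ over wild type, of gene-free CUT_GIM transcripts against their SUT or XUT (left, 212 pairs) and of overlapping CUT_GIM transcripts against their gene (right, 351 pairs), with the line of equal folds in red. Pearson's r was 0.88 and 0.51, and more points lay below the line than above it in both panels (137 of 212 left, 226 of 351 right). The isolated point at the top of the right panel is CUT_GIM_0748.

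The factors that end and degrade CUTs were themselves measured as mRNAs. None of 21 genes of the Nrd1-Nab3-Sen1 complex, TRAMP and the nuclear exosome rose in upf1Δ and 16 fell, with a median log2 fold of -0.26 (9 fell with scaling on coding features, median -0.13). Among ORF features as a whole, 26.0% rose and 44.1% fell. The smallest p-values were those of PAP2, the poly(A) polymerase of TRAMP (-0.57), its helicase gene MTR4 (-0.51), and the exosome subunit genes MTR3 (-0.38) and CSL4 (-0.35). Of 6 genes of cytoplasmic decay, NMD2 rose, and the deleted NAM7 (-4.83), DCP1 (-0.73), XRN1 (-0.44), DCP2 (-0.31) and UPF3 fell. None of the 27 was called in nmd4Δ, ebs1Δ or the labelled double deletion. The part of these changes in the levels of CUT_GIM transcripts was not tested.

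In nmd4Δ no CUT_GIM transcript was called by edgeR or DESeq2, among 817 tested, and 36 had an unadjusted p under 0.05 in edgeR. Over all 10148 features 0.0394% were higher and 0.00985% lower. With same-numbered libraries as blocks none was called either, against 0.0887% higher and 0.00985% lower. The smallest p was that of CUT_GIM_0067, opposite YER079W, with 1.22, 1.20 and 1.01 CPM in nmd4Δ, against 0.449, 0.363 and 0.687 CPM in wild type (log2 1.12 ± 0.26 SE, adjusted p = 0.601, edgeR). Its libraries did not overlap, yet the difference was not called. CUT_GIM_0669 at the start of IZH4 (log2 0.80, adjusted p = 0.78, edgeR) and CUT_GIM_0425 at HSK3 (log2 0.45, adjusted p = 0.792, edgeR) came next. All 3 mutants of the second series share the same wild-type libraries.

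In ebs1Δ 2 of 817 transcripts (0.245%) were higher and none lower, against 0.355% higher and 0.00985% lower over all features, and 76 had an unadjusted p under 0.05. CUT_GIM_0073 had 8.47, 9.57 and 8.44 CPM in ebs1Δ, against 5.78, 5.66 and 5.08 CPM in wild type (log2 0.68 ± 0.13 SE, adjusted p = 0.0481, edgeR). CUT_GIM_0801 had 3.44, 3.09 and 3.19 CPM in ebs1Δ, against 1.74, 1.89 and 1.83 CPM in wild type (log2 0.83 ± 0.15 SE, adjusted p = 0.0481, edgeR). Both groups were separate in each case, and both are among the 10 largest rises of upf1Δ. Neither call held when any 1 of the 6 libraries was left out (adjusted p from 0.0648 to 0.227, edgeR). With same-numbered libraries as blocks, 19 were higher and 5 lower, against 3.22% and 2.4% of all features.

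In the labelled double deletion 15 transcripts (1.84%) were higher and 3 (0.367%) lower, near the 2.01% and 0.384% over all features. The most changed lay beside genes of the strain background. CUT_GIM_0552, which ends 57 bases before the alpha-factor gene MF(ALPHA)2 on the same strand, had 48.1, 41.1 and 45.3 CPM there, against 0.281, 0.508 and 0.687 CPM in wild type (log2 6.44 ± 0.28 SE, adjusted p = 5.65e-08, edgeR). MF(ALPHA)2 itself averaged 188 CPM there and 0.263 CPM in wild type. CUT_GIM_0801, divergent from the alpha-cell gene AFB1, had 21.6, 21.1 and 16.7 CPM there, against 1.74, 1.89 and 1.83 CPM in wild type (log2 3.44 ± 0.15 SE, adjusted p = 5.91e-08, edgeR), and AFB1 averaged 155 CPM there and 12.7 CPM in wild type. CUT_GIM_0086, 354 bases from the start of LYS2, had 0.376, 0.184 and 0.215 CPM there, against 3.48, 2.10 and 1.87 CPM in wild type (log2 -3.26 ± 0.34 SE, adjusted p = 0.000212, edgeR). CUT_GIM_0081, which starts at the same base, had 4, 0 and 2 counts there, so its fold rests on few counts (log2 -3.80 ± 0.63 SE, adjusted p = 0.00832, edgeR). Its call was lost without replicate 3 of the labelled double deletion (adjusted p = 0.0531, edgeR).

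CUT_GIM_0968 in YCR041W, next to the mating-type locus gene MATALPHA2, had 1.60, 1.20 and 1.60 CPM in the labelled double deletion, against 0.561, 0.508 and 0.420 CPM in wild type (log2 1.58 ± 0.28 SE). Other calls were not at these loci. CUT_GIM_0073 had 9.63, 10.5 and 9.47 CPM there, against 5.78, 5.66 and 5.08 CPM in wild type (log2 0.84 ± 0.13 SE, adjusted p = 0.00413, edgeR). CUT_GIM_0934 had 9.44, 9.82 and 7.69 CPM there, against 5.22, 4.21 and 4.2 CPM in wild type (log2 0.98 ± 0.18 SE, adjusted p = 0.0139, edgeR). CUT_GIM_0894, 324 bases from the purine synthesis gene IMD4, had 0.845, 0.691 and 1.01 CPM there, against 0.225, 0.290 and 0.267 CPM in wild type (log2 1.71 ± 0.28 SE, adjusted p = 0.00777, edgeR). At these levels the fold rests on few counts. CUT_GIM_0894 also rose in upf1Δ (log2 1.69 ± 0.46 SE, adjusted p = 0.00726, edgeR), and was not called in ebs1Δ (log2 1.35, adjusted p = 0.0762, edgeR). It ends 50 bases before SPC2 on the same strand. CUT_GIM_0407, inside the mitochondrial reductase gene MCR1, was the other fall (log2 -0.74, adjusted p = 0.0386, edgeR). With same-numbered libraries as blocks 28 were higher and 11 lower, against 5.17% and 3.63% of all features, and leaving out any 1 of the 6 libraries gave 6 to 10 higher and 1 to 7 lower.

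**Figure D5:**
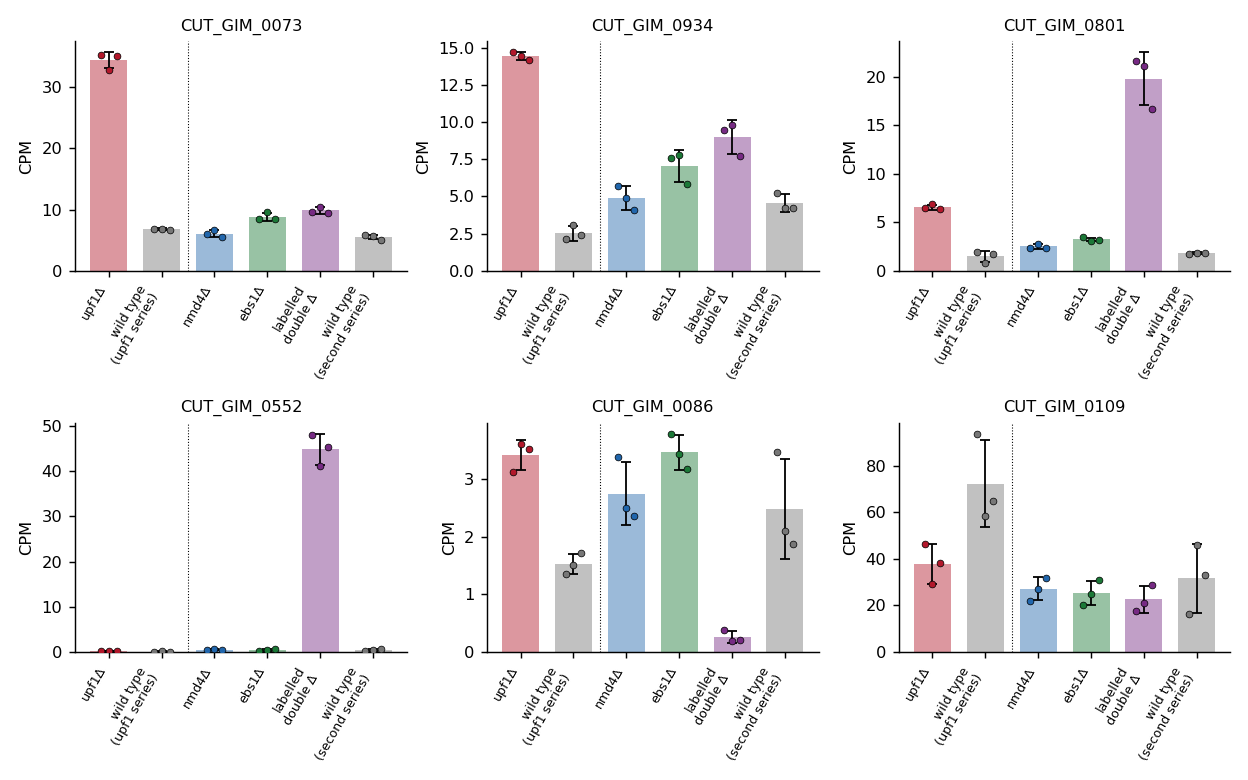
CPM of 6 gene-free CUT_GIM transcripts in the 6 groups, with bars for the mean, lines for the SD and points for the 3 libraries, and a dotted line between the upf1 series and the second series. CUT_GIM_0073 and CUT_GIM_0934 were highest in upf1Δ, CUT_GIM_0801 and CUT_GIM_0552 in the labelled double deletion, where CUT_GIM_0086 was lowest, and CUT_GIM_0109 in the wild type of the upf1 series.

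The difference between the upf1 effect and each other effect was tested in a fit of all 18 libraries, each effect being taken against the wild type of its own series. Of 857 CUT_GIM transcripts tested, the upf1 effect exceeded the nmd4 effect in 57 (6.65%) and fell short of it in 45 (5.25%), against 20.8% and 5.42% of all features. The counts were 36 (4.2%) and 30 (3.5%) for ebs1Δ, against 16.9% and 2.97% of all features. They were 35 (4.08%) and 30 (3.5%) for the labelled double deletion, against 16.3% and 2.54%. With the replicate block the counts of smaller upf1 effects were 119 for nmd4Δ, 101 for ebs1Δ and 99 for the labelled double deletion, against 16.3%, 12.3% and 11.7% of all features. Those of larger upf1 effects were 83, 54 and 53, against 24.9%, 21.3% and 20.8% of all features. Within the 249 gene-free transcripts on a SUT or XUT the larger upf1 effects numbered 29, 20 and 19, and the smaller ones 5, 1 and 4. The larger ones made up 11.6%, 8.03% and 7.63%, below the shares of all features. The 3 comparisons share the upf1 series and a wild type.

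CUT_GIM_0073 had the smallest p among gene-free transcripts in the comparison with nmd4Δ, with an upf1 effect larger by 2.20 ± 0.15 SE on the log2 scale (adjusted p = 1.66e-08, edgeR). The difference was 1.64 ± 0.15 SE against ebs1Δ (adjusted p = 6.51e-07, edgeR) and 1.47 ± 0.15 SE against the labelled double deletion (adjusted p = 1.78e-06, edgeR). CUT_GIM_0934 had differences of 2.42, 1.86 and 1.52, CUT_GIM_0699 of 2.08, 2.01 and 1.78, and CUT_GIM_0732 of 2.92, 2.52 and 2.43. CUT_GIM_0399, 360 bases from the cell wall gene PIR1, had 17.4, 18.0 and 18.1 CPM in upf1Δ, against 7.19, 6.08 and 6.38 CPM in wild type, and differences of 1.54, 1.36 and 1.18. The differences of CUT_GIM_0086 (4.4) and CUT_GIM_0552 (-5.91) against the labelled double deletion lay at loci named above, and their cause was not tested. For CUT_GIM_0086 the difference combined a fall there (log2 -3.26) with a rise in upf1Δ. CUT_GIM_0086 rose in upf1Δ, with 3.12, 3.61 and 3.53 CPM against 1.36, 1.51 and 1.72 CPM in wild type (log2 1.16 ± 0.16 SE).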

How the data were processed

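RNA of 18 libraries was measured by stranded total RNA sequencing. The deposited values are counts of reads per feature, in 1 table for the upf1 series and 1 for the second. Per the file headers and the submitters' processing notes, trimmed reads were aligned with STAR 2.4.2a to R64 and counted by the authors on the sense strand (featureCounts of Subread 1.5.0-p3), for every feature overlapped, without reads that aligned more than once. The deposited counts carry no scaling. Library totals were 14243384 to 31452109, and a group with 3 or fewer counts in every library gave no fold.

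Samples were grouped by title. The CUT_GIM transcripts and all lists were chosen with earlier results of these data known. edgeR 4.0.16 in R 4.3.3 filtered features (filterByExpr), scaled them (TMM) and ran the 2-sided quasi-likelihood test. Adjustment over all features was by Benjamini and Hochberg, and calls needed an adjusted p under 0.05. Fits used 6 libraries for the upf1 series, 12 for the second series and all 18 for differences of effects. SE is the absolute log2 fold over the root of the F statistic. CPM were scaled within each series. Tables and figures used Python 3.11.15 (pandas 2.3.3, matplotlib 3.10.9), and the test was tried on simulated data. All 352 structural RNA features compared had the ends of RefSeq R64, so sequences were read from that genome. Motifs were the exact letters GTAA, GTAG and TCTT on both strands.

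Named were the 10 largest gene-free rises and 6 largest falls in upf1Δ, and 4 of each among overlapping transcripts, each called, averaging 1 CPM or more in 1 of the groups, and with separate groups of libraries. In the other comparisons these were up to 6 with the smallest adjusted p under 0.05, or the 3 with the smallest p where none passed, and up to 6 gene-free ones for differences of effects. The 5 gene-free transcripts with the highest mean CPM were added, as were other calls of the labelled double deletion, chosen after their values were seen.

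Per the labels, same-numbered libraries of a series were handled in parallel, so the numbers pair them. Deviations from the group mean correlated between same-numbered libraries by -0.0106 to 0.645 (median 0.47) in the second series and by 0.0439 to 0.226 in the upf1 series, against medians of -0.229 and -0.0711 between other pairs. The main fits, and those with a library left out, did not use this pairing, and the replicate block was an alternative fit. Other alternatives were RLE scaling, scaling on coding features, no filter, DESeq2 1.42.0, a minimum fold of 1.5, a fit of the 2 compared groups, an overlap of at least 50%, leaving out transcripts on other non-coding features, and leaving out each library.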

Additional observations from a re-analysis of the deposited data

How the results depend on the processing

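No transcript named for a change from wild type or a difference of effects reversed its direction under any alternative run. Of their alternative values 22 lost the call, among them both ebs1Δ calls. In the upf1 comparison, a minimum fold of 1.5 left 50 gene-free transcripts higher and 16 lower, 22 overlapping ones higher and 24 lower, 45 higher and 7 lower on a SUT or XUT, and 5 higher and 9 lower off them. DESeq2 gave 38 gene-free lower, 18 lower on a SUT or XUT and 7 higher off them. With no filter, 21 were higher and 54 lower off them, and scaling on coding features gave 17 lower on a SUT or XUT. An overlap of at least 50% gave 101 gene-free lower and 34 overlapping higher, and leaving out transcripts on SUTs, XUTs or first-annotation CUTs gave 7 higher and 10 lower. The gene-free median was 0.24 with coding scaling, -0.16 with no filter, -0.20 with DESeq2, 0.00902 with 50% overlap and -0.21 off all other features. The overlapping median was -0.14 with coding scaling and -0.32 with DESeq2. The median was 0.46, 0.21 and 0.18 on a SUT or XUT, and -0.18, -0.38 and -0.42 off them, with coding scaling, no filter and DESeq2. Leaving out CUT_GIM_0748, an alternative chosen after seeing the data, gave 62 overlapping higher and 149 lower.

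In ebs1Δ, RLE scaling, no filter and the 2-group fit gave 0 higher, DESeq2 gave 6 higher and 2 lower, and the replicate block 19 and 5. In the labelled double deletion the block gave 28 higher and 11 lower, the 2-group fit 2 and 1, and DESeq2 5 lower. The differences with a smaller upf1 effect than in nmd4Δ, ebs1Δ and the labelled double deletion numbered 104, 62 and 64 with RLE scaling, which moved the median of all features to -0.15, -0.13 and -0.12. They numbered 89, 49 and 50 with no filter, and 119, 101 and 99 with the replicate block, which gave 53 larger effects against the labelled double deletion. The block changed no other call count by more than 1.5 times. Counts under RLE scaling, no filter, the 2-group fit, DESeq2 and left-out libraries have no share of all features beside them. They are set only against the main counts.

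Without 1 library at a time, the upf1 comparison gave 40 to 64 gene-free lower (median 0.00495 to 0.19), and 16 to 28 lower on a SUT or XUT (median 0.25 to 0.41), with 16 without replicate 2 of upf1Δ. The median off SUTs and XUTs was -0.38 to -0.25. The nmd4Δ medians were -0.00439 to 0.26 gene-free and -0.0850 to 0.19 overlapping. In ebs1Δ 0 to 0 were higher and 0 to 3 lower, with medians of -0.13 to 0.15 and -0.0398 to 0.20. In the labelled double deletion 6 to 10 were higher and 1 to 7 lower, with medians of -0.11 to 0.20 and -0.02 to 0.22. The cause was not tested in any of these. Low counts left 536 of 863 gene-free transcripts untested in the upf1 series.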
